A study of Mus musculus with 28 samples.

Results

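Open chromatin was compared between growth plate skeletal stem/progenitor cells (gpSSPCs) and periosteal skeletal stem/progenitor cells (pSSPCs) of control mice, with 3 ATAC-seq libraries of each population, that is 6 of the 28 libraries of the series. The series examines Zmpste24 (Z24), the protease that completes the maturation of lamin A, and its removal by Cre from the Prx1 lineage of limb mesenchyme. Both populations came from mice of 20 weeks of age, carrying the Prx1-Cre transgene and the Ai9 reporter, a red fluorescent protein that Cre switches on for good. The Cre is driven by the limb enhancer of Prrx1, so the sorted cells come from a lineage that is largely that of limb mesenchyme. According to the study's methods, gpSSPCs were Ai9+ CD31- CD45- Ter119- CD73+ cells of the growth plate, and pSSPCs were Ai9+ CD31- CD45- Ter119- Sca1+ cells of the periosteum of femur and tibia. The genotype field of the labels gives PrxCre; Z24fl/fl for control and CKO libraries alike, so the control libraries were told from the CKO (Z24-deleted) libraries by their titles. The tissues were also dissociated apart from each other, the growth plates for longer than the periosteum, so that population, tissue digestion and sort marker cannot be told apart in any difference below. Nothing in the labels says whether the replicates came from separate mice, and the spread between them may be technical.

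The growth plate is the cartilage that lengthens a bone. Its resting zone holds progenitors that feed columns of chondrocytes, which secrete type II collagen and aggrecan and are kept in the cartilage fate by the transcription factors Sox9, Sox5 and Sox6. The periosteum is the fibrous sheath of the bone, and its progenitors, embedded among fibroblasts that make type III collagen and decorin, form bone and callus after fracture. In ATAC-seq a transposase cuts DNA that is free of nucleosomes, so that promoters and enhancers in use pile up cut sites. A peak here is a stretch with more cut sites than its surroundings, and its summit pileup is the number of tags (ends of sequenced fragments, extended to 200 bp) at the highest point. A region is called open in a library when a peak of that library lies in it.

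The growth plate libraries held 19271923, 18009251 and 40668538 tags after filtering for replicates 1 to 3, and the periosteal libraries 13932350, 12250713 and 26371117. On chromosomes 1 to 19 and X they yielded 98514, 92990 and 88044 peaks in gpSSPCs compared with 63494, 59183 and 79689 in pSSPCs. Among the pSSPC libraries more tags went with more peaks, while the deepest library, gpSSPC replicate 3, had fewer peaks than the other growth plate libraries. To compare like with like, every list was cut to its 59183 most significant peaks, the length of the shortest list. The weakest peak kept had a −log10 q-value of 11.10, 9.36 and 8.63 in the gpSSPC libraries and of 4.23, 1.32 and 8.07 in the pSSPC libraries. The periosteal lists, above all that of replicate 2, therefore reach down to weaker peaks than the growth plate lists.

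The label of each population was checked against the genes that define it. Nt5e, which encodes the sort marker CD73, had a promoter peak in all 6 libraries. That peak stood at percentiles 96.6, 96.6 and 93.4 of the gpSSPC lists and 79.9, 77.9 and 79.6 of the pSSPC lists, where 100 is the most significant peak of a library. Ly6a, which encodes Sca1, had the opposite order, with percentiles of 47.2, 13.3 and 37.1 in gpSSPCs and 73.7, 70.7 and 63.3 in pSSPCs. Each sort marker was thus ranked higher in the population sorted on it, without overlap between the groups. The promoters of all 10 housekeeping genes on the list had a peak in all 6 libraries, and none of the 6 muscle promoters and none of the 6 lymphoid promoters had one in any library. Zmpste24 itself was open in all 6, at percentiles 59.1, 37.3 and 79.7 in gpSSPCs and 52.5, 52.5 and 41.2 in pSSPCs, which overlap.

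Among markers of cells that the sort should have removed, 1 library stood apart. Of 8 myeloid promoters, those of Spi1, Itgam and Csf3r had a peak in gpSSPC replicate 3, at percentiles 73.3, 39.6 and 54.9, and in none of the other 5 libraries, while Ptprc, which encodes the gated CD45, had none in any library. The promoter of Sox10, a Schwann cell regulator, also had a peak in gpSSPC replicate 3 alone among the cut lists, at percentile 3.9, but in all 3 gpSSPC and no pSSPC library among the full lists. Its RNA was at 18.6, 2.5 and 3.38 CPM (counts scaled to a common library total) in gpSSPCs and 0.75, 0 and 0 in pSSPCs. Of the other myeloid promoters, that of Cd68 had a peak in 5 of the 6 libraries, and those of Csf1r, Lyz2 and Cebpe had none in the cut lists. In the full lists Csf1r, Lyz2 and Cebpe each had a peak in 1 gpSSPC library and in no pSSPC library. In the RNA-seq libraries, which are other samples, the summed level of the 8 myeloid genes was 4.65, 22.6 and 18.9 CPM in gpSSPCs and 6.75, 21 and 23.7 in pSSPCs, with Cd68 the most abundant over all libraries and Csf3r and Cebpe at 0. Counts of regions and promoters are also given without gpSSPC replicate 3. Of 9 endothelial promoters, those of Kdr and Tek, receptors for VEGF and angiopoietin, were open in the 3 pSSPC libraries and in no gpSSPC library, whereas Cdh5, Tie1, Sox17 and Plvap had no peak in any library, and Pecam1, which encodes the gated CD31, had a single weak peak at percentile 1.7 in gpSSPC replicate 1. In the full lists gpSSPC libraries had a peak at Kdr in 3 of 3 and at Tek in 2 of 3. Erg, a factor of endothelium and of joint cartilage, ranked higher in gpSSPCs, at 83.4, 86.8 and 75.4 against 53.1, 43.1 and 39.4. The summed RNA level of the 9 endothelial genes was 43.5, 65.7 and 70.1 CPM in gpSSPCs and 109, 166 and 166 in pSSPCs, with Plvap the most abundant. The part of such cells in the differences was not tested.

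The lists of the same population resembled each other far more than those of different populations. Of the peaks of a library, 79.0% to 87.1% overlapped a peak of another library of the same population (median, 82.3% over 12 ordered pairs), compared with 51.5% to 57.0% for libraries of different populations (median, 54.4% over 18 ordered pairs). The lowest value within a population was above the highest value between populations. When peaks had to cover at least 50% of each other, the medians fell to 76.3% and 45.9%. No test was run on these shares, since the pairs share libraries.

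**Figure D1:**
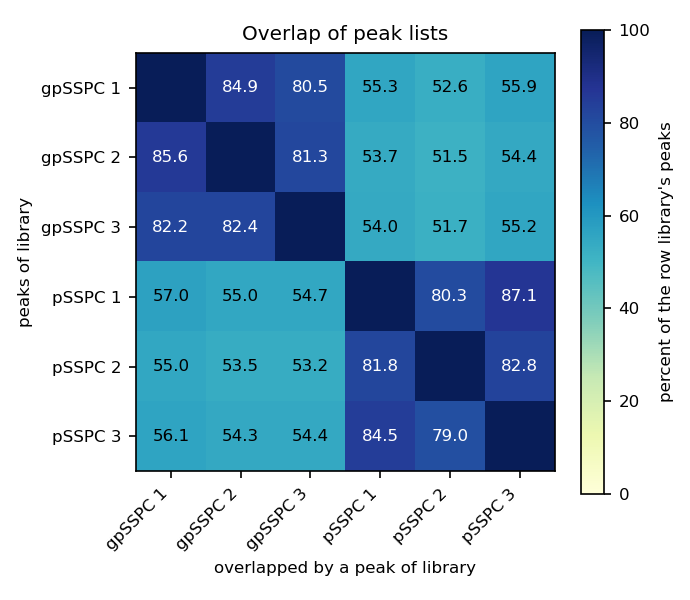
Percent of the 59183 peaks of the library in the row that overlap a peak of the library in the column by at least 1 bp, for 3 gpSSPC and 3 pSSPC control libraries. The 2 blocks of the same population hold 79.0% to 87.1%, and the blocks between populations hold 51.5% to 57.0%.

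Merging all peaks gave 107005 regions. A peak in all 6 libraries was found in 24925 of them (23.3%). A further 14519 regions (13.6% of the merged regions) were open in 3 of 3 gpSSPC and 0 of 3 pSSPC libraries, and 12596 (11.8%) in 3 of 3 pSSPC and 0 of 3 gpSSPC libraries. The remaining 54965 regions were open in some libraries of a population but not all, or in both populations incompletely, and 13034 and 13593 of the merged regions were open in a single gpSSPC or a single pSSPC library. Leaving out gpSSPC replicate 3 makes the rule easier to meet, so that a rise says nothing of that library. The counts were then 18046 for gpSSPCs and 13496 for pSSPCs. With the full lists, in which gpSSPCs have more peaks, they were 24255 and 8798, so that the ratio of the counts rests on the list length.

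These groups of regions lay in different places. Of the regions open in all 6 libraries, 47.4% had their summit within 1000 bp of a transcription start site, compared with 5.7% of the gpSSPC-only and 4.6% of the pSSPC-only regions. Seen from the other side, 69.1% of the 17119 promoter regions were open in all 6 libraries, but 14% of the 44738 intronic and 15.1% of the 42039 intergenic regions. The median distance to the nearest start site was 1801 bp for regions open in all 6, 21467 bp for gpSSPC-only and 28076 bp for pSSPC-only regions. More of the gpSSPC-only regions lay in introns (51.2% against 43.0%) and more of the pSSPC-only regions between genes (49.8% against 39.5%). Regions open in all 6 libraries were also wider, with a median of 1085 bp compared with 723 bp and 667 bp, a width that grows with the number of peaks merged.

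The strongest peaks were mostly shared, and more so in pSSPCs. In the most significant 10% of each list, 85.9%, 87.1% and 93.3% of gpSSPC peaks and 96.2%, 97.9% and 94.8% of pSSPC peaks lay in regions open in all 6 libraries. Only 10.3%, 9.5% and 5.0% of the gpSSPC peaks and 1.3%, 0.8% and 2.0% of the pSSPC peaks in that 10% lay in regions of 1 population. That share was higher in every gpSSPC library than in every pSSPC library. Just below the middle of the lists (percentiles 40 to 50) the share was 34.5% to 36.1% in gpSSPCs and 34.8% to 36.2% in pSSPCs, and the ranges overlapped. The strongest gpSSPC peaks thus lay more often in regions without a peak in the cut lists of the other population than the strongest pSSPC peaks did. Of the 6 libraries, pSSPC replicates 1 and 2 had the fewest tags, and the part of depth was not tested.

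**Figure D2:**
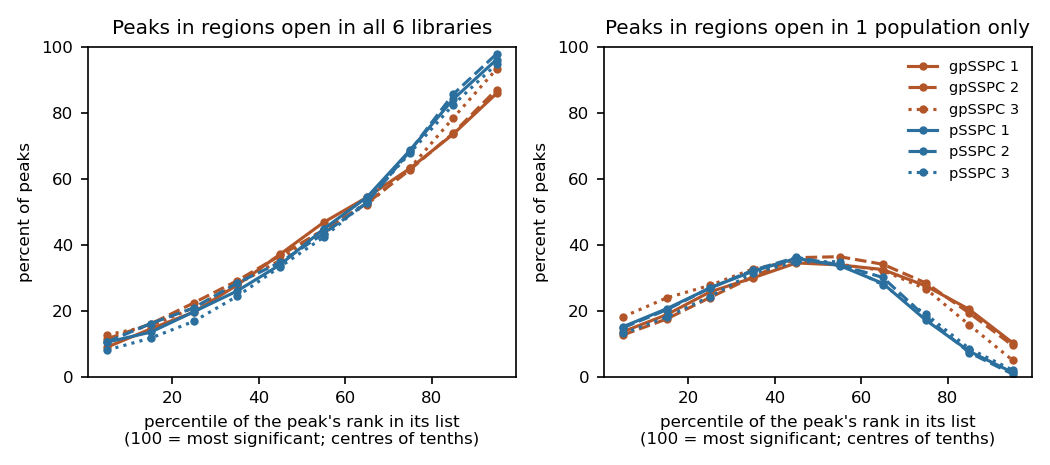
Percent of peaks (y axis) that lie in regions open in all 6 libraries (left) or in 1 population only (right), by the percentile of the peak's rank in its library (x axis, in steps of 10, 100 the most significant), 1 line per control library. In the strongest 10% the gpSSPC lines reach 5.0% to 10.3% on the right, above the pSSPC lines at 0.8% to 2.0%.

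Promoters held a like share of the cut lists of both populations, while introns and exons held more of the gpSSPC peaks and intergenic DNA more of the pSSPC peaks. Promoter peaks made up 24.31%, 24.81% and 25.48% of the cut gpSSPC lists and 25.10%, 25.62% and 24.18% of the pSSPC lists, and the groups overlapped (exact permutation test over libraries, two-sided, p = 0.8). With the full lists the difference (gpSSPC minus pSSPC) was -4.542 percentage points. Intronic peaks made up 38.64%, 38.30% and 38.67% in gpSSPCs and 35.33%, 34.97% and 36.70% in pSSPCs, and exonic peaks 2.68%, 2.88% and 2.82% against 2.29%, 2.52% and 2.29%. Intergenic peaks made up 34.37%, 34.01% and 33.04% against 37.28%, 36.89% and 36.83%. In all 3 cases the groups did not overlap (exact permutation test, p = 0.1, the smallest that 3 libraries against 3 allow). Peaks farther than 10000 bp from a start site made up 54.6% ± 1.48 (SD, n = 3) of gpSSPC peaks and 55.9% ± 0.0439 (SD, n = 3) of pSSPC peaks, a difference of -1.23 percentage points, without overlap (exact permutation test, p = 0.1), that turned to 2.196 with the full lists and was -0.384 without gpSSPC replicate 3. The X chromosome held 1.87%, 1.99% and 1.84% of gpSSPC peaks and 2.39%, 2.47% and 2.38% of pSSPC peaks, again without overlap (p = 0.1 by the exact permutation test). Median peak widths of 674, 662 and 586 bp in gpSSPCs and 528, 464 and 661 bp in pSSPCs overlapped (p = 0.2, exact permutation test). Tag sizes of 86 bp in gpSSPC replicate 3 and 110 to 124 bp in the other libraries set the gap over which the peak caller joins neighbouring stretches, and their part in the widths was not tested.

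The difference between the populations was then looked for in libraries that had no part in choosing the regions, the 3 gpSSPC and 3 pSSPC libraries of CKO mice, cut to the same length. Of the 14519 regions found only in control gpSSPCs, 94.3%, 90.8% and 83.4% had a peak in the gpSSPC CKO libraries, and 6.7%, 7.7% and 9.6% in the pSSPC CKO libraries. Of the 12596 regions found only in control pSSPCs, 86.0%, 85.2% and 86.3% had a peak in the pSSPC CKO libraries, and 3.2%, 4.3% and 8.9% in the gpSSPC CKO libraries. The means differed by 81.5 and -80.4 percentage points (gpSSPC CKO minus pSSPC CKO, n = 3 each, exact permutation test, p = 0.1 for both, the smallest possible). Regions open in all 6 control libraries were recovered at 92.3% to 97.0% in the gpSSPC CKO and 98.1% to 98.4% in the pSSPC CKO libraries. The lowest recovery of gpSSPC-only regions and the highest share of pSSPC-only regions among the gpSSPC CKO libraries both belonged to replicate 3. In lists of equal length, the regions of each population were therefore found again in the CKO mice, in the same population and hardly in the other. With full lists for both the regions and the CKO libraries, the means differed by 67.24 and -88.6 percentage points. The size of the difference thus rests in part on the list length.

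Promoters were compared next, over all genes and over lists of lineage genes. A promoter was counted as open when a peak lay within 1000 bp of a start site of the gene. Of 21644 protein-coding genes, 11977 were open in all 6 libraries, 7146 in none, 388 (1.79%) in the 3 gpSSPC libraries only and 235 (1.09%) in the 3 pSSPC libraries only. Of 31 chondrocyte genes, 12 were open in gpSSPCs only, none in pSSPCs only, 12 in all 6 libraries and 2 (Matn1 and Col10a1) in none. The remaining 5 had other patterns. Among them Comp, a cartilage matrix gene, had no peak in gpSSPC replicate 1 and percentiles of 18.2 and 60.5 in replicates 2 and 3, against 48.7, 56.5 and 38.3 in pSSPCs. Of 28 periosteal fibroblast genes, 6 were open in pSSPCs only, none in gpSSPCs only, 16 in all 6 and 2 (Postn and Tcf21) in none. Of 16 osteoblast genes, 4 were open in gpSSPCs only, none in pSSPCs only, 7 in all 6 and 4 in none. The lists were composed with earlier results of these data known, so their counts are a description beside the share over all genes. Without gpSSPC replicate 3 the 3 counts stayed at 12, 6 and 4. With fewer libraries the rule is easier to meet and the counts cannot fall, so this is no check on that library.

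Among the 12 chondrocyte genes were those of the collagen fibril and its network. Col2a1, the main collagen of cartilage, had promoter percentiles of 61.2, 71.9 and 78.5 in gpSSPCs and no peak within 1000 bp in any cut pSSPC list. The 3 chains of type IX collagen, which sits on the surface of the type II fibril, were open in gpSSPCs only as well, with Col9a1 the highest at 83.3, 85.1 and 78.5 and Col9a2 and Col9a3 between 51.6 and 72.0. Col11a2, a chain of type XI collagen inside the fibril, was lower, at 29.6, 42.8 and 40.5. Acan, the core protein of the main cartilage proteoglycan, also ranked in the lower part of the gpSSPC lists in 2 libraries, at 22.1, 32.9 and 56.7. The proteins Snorc, Cnmd (chondromodulin), Mia and Cytl1, which cartilage cells secrete or carry on their surface, had percentiles between 14.2 and 72.2, the lowest for Cytl1. Ucma, a secreted protein of resting and early chondrocytes, reached 75.4, 91.2 and 87.2. The highest ranks of the 12 genes belonged to Runx3, a transcription factor of maturing chondrocytes, at 97.3, 93.7 and 92.9. Among these 12 genes, the 3 gpSSPC libraries thus placed Runx3 above the collagen and proteoglycan genes. In the full lists, which reach weaker peaks, pSSPC libraries did have a peak at Col2a1 (2 of 3 libraries), Col11a2 (1 of 3) and Runx3 (1 of 3), and within 2500 bp all 3 pSSPC libraries had one at Mia, 2 at Col2a1 and 1 at Col9a3.

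The 6 periosteal genes encode proteins of fibrous matrix. Clec3b, which encodes the plasminogen-binding protein tetranectin, stood highest, at percentiles 85.0, 81.5 and 69.7 in pSSPCs, with no peak in the cut gpSSPC lists. Mfap5, a component of elastic microfibrils, stood at 76.1, 73.8 and 70.6. Col3a1, the collagen of loose connective tissue, was at 61.8, 72.7 and 50.4. The other 3 were weaker. Dpt (dermatopontin) was at 33.6, 41.5 and 48.2, Cilp at 16.1, 18.8 and 32.9, and Aspn, a small proteoglycan related to decorin, at 2.8, 42.3 and 7.5. The periosteal side depended on the list length. In the full lists gpSSPC libraries had a peak at Clec3b, Col3a1 and Cilp in 2 of 3, at Dpt in 3 of 3 and at Mfap5 in 1 of 3, which left Aspn as the only gene of the 6, and within 2500 bp the count was 3. Over all genes, the pSSPC-only count fell from 235 to 96 with the full lists while the gpSSPC-only count rose to 582. For 5 of the 6 genes gpSSPC libraries thus had a weaker peak below the cut length of the list.

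The osteoblast genes open in gpSSPCs only were Sp7, Bglap, Ibsp and Spp1, 4 of the 16 listed, and Dmp1, Phex, Mepe and Ifitm5 had no promoter peak in any cut list. Sp7, the osteoblast transcription factor osterix, had percentiles of 45.6, 35.5 and 48.6 in gpSSPCs and no peak in the cut pSSPC lists. The osteocalcin gene Bglap stood at 80.1, 81.8 and 82.5, again in gpSSPCs only. Ibsp and Spp1, which encode bone sialoprotein and osteopontin, stood between 17.7 and 66.5. Bglap lies in a cluster of near-identical genes, between which the authors' alignment could split reads. In the full lists 2 of 3 pSSPC libraries had a peak at Bglap. Runx2, which precedes Sp7 in the osteoblast lineage, was open in all 6 libraries, with overlapping percentiles of 59.7, 37.3 and 54.8 in gpSSPCs and 61.9, 69.1 and 48.7 in pSSPCs. Col1a1 was also open in all 6 and ranked higher in pSSPCs (26.8, 18.0 and 49.7 against 75.4, 76.3 and 68.3). The haptoglobin gene Hp, on the marrow stroma list, was open in gpSSPCs only (33.5, 47.4 and 61.0), and Cspg4, a pericyte marker, in pSSPCs only (56.1, 59.3 and 41.9), where Odf3l1 starts within 2 kb. Of the other osteoblast genes, the homeobox genes Dlx6 and Msx2 were open in all 6 and ranked higher in gpSSPCs (Msx2 at 78.0, 84.3 and 85.2 against 31.9, 61.8 and 37.2).

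**Figure D3:**
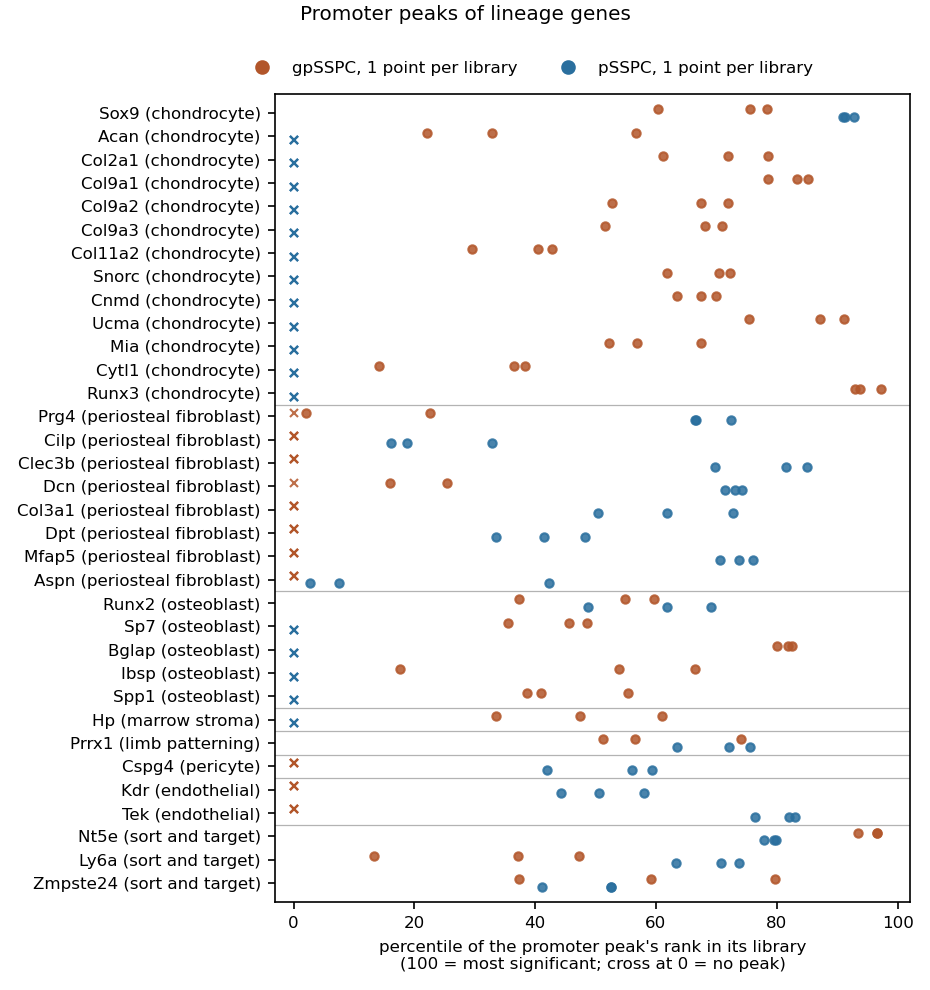
Percentile (x axis, 100 the most significant) of the best peak within 1000 bp of a start site for the 26 list genes open in 1 population only and 8 further genes (y axis, with their list), 1 point per control library, crosses at 0 where there was no peak. The 12 chondrocyte genes below Sox9 have gpSSPC points and pSSPC crosses only, and Sox9 has pSSPC points to the right of the gpSSPC points.

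Promoter sequences are printed for the genes that carry this contrast, as the 200 bases before the start site from the RefSeq promoter table (GRCm38.p6, the build of the peak files), 5′ to 3′ on the gene's strand. Of the 26 list genes open in 1 population only, 19 had a window in that table. The 4 highest ranked in each population were read, with Acan and Dpt added, and the 7 that hold a motif are shown, since those of Bglap, Cspg4 and Kdr hold none. Capitals mark matches, on either strand, to 5 short motifs: TGANTCA (bound by AP-1), TGTGGTT (RUNX), ACAAAG (SOX), GGAATG (TEAD) and TTGGCA (NFI).
Runx3: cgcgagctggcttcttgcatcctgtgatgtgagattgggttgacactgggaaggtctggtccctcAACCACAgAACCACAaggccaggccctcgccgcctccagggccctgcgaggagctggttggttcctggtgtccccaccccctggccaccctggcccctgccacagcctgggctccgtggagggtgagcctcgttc
Ucma: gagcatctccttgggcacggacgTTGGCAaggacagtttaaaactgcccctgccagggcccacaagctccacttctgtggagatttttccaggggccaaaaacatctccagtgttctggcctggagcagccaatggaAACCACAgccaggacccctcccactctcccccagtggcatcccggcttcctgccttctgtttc
Col9a1: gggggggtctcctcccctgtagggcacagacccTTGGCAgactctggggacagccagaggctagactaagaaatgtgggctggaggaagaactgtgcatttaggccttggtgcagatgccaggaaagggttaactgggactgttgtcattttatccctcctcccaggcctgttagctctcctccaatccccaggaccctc
Acan: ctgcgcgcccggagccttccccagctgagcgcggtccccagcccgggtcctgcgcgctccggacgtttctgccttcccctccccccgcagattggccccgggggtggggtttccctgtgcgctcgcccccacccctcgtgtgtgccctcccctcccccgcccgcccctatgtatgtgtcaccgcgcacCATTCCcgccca
Tek: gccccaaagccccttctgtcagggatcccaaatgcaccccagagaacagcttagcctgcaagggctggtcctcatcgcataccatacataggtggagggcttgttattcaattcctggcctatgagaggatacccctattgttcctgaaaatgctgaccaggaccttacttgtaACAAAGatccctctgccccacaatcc
Col3a1: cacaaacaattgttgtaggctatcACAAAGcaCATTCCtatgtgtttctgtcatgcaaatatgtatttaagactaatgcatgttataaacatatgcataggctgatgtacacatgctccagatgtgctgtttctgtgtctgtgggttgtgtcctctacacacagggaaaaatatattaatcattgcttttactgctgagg
Dpt: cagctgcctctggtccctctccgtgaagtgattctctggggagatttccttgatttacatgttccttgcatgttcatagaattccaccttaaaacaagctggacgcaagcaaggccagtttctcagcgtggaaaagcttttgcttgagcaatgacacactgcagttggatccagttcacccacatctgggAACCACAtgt

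These windows are chr4:135120445-135120644 (plus strand) for Runx3, chr2:4975922-4976121 (plus) for Ucma, chr1:24195003-24195202 (plus) for Col9a1, chr7:79053026-79053225 (plus) for Acan, chr4:94739089-94739288 (plus) for Tek, chr1:45311338-45311537 (plus) for Col3a1 and chr1:164796463-164796662 (plus) for Dpt. The Runx3 window holds the RUNX motif at 2 adjacent places, starting 135 and 127 bases before the start site and read on the other strand as AACCACA. The Ucma window holds a RUNX motif 63 bases before the start site and an NFI motif at 177. The SOX motif was found in the windows of Tek and Col3a1, which are open in pSSPCs, and in none of the 4 growth plate windows shown above. The Acan window stands out by its base composition, with 74% G and C and 20 CpG, compared with 37.5% and 0 CpG for Col3a1.

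Of the 32851 windows in the table (250 bases before to 50 after a start site), the 20033 of the protein-coding genes on chromosomes 1 to 19 and X were used, each position once. In them the population-specific promoters were poorer in CpG than promoters in general. The median window held 7 CpG for the 401 start sites open in gpSSPCs only and 6 for the 237 open in pSSPCs only, compared with 22 for the 11063 open in all 6 libraries, 3 for the 6576 open in none and 14 over all windows used. The SOX motif lay in 19.7% of the gpSSPC-only, 19% of the pSSPC-only and 16.6% of all windows used, the RUNX motif in 7.0%, 6.3% and 4.7%, and the AP-1 motif in 10.5%, 10.1% and 7.0%. The TEAD motif lay in 12.2%, 16.5% and 13.4% and the NFI motif in 19.7%, 17.7% and 13.1%. Windows open in all 6 libraries held each motif less often (12.2% for SOX, 3.0% for RUNX, 4.4% for AP-1, 11.2% for TEAD and 10.0% for NFI), and windows open in none held SOX in 24%, RUNX in 7.0%, AP-1 in 10.8%, TEAD in 16.3% and NFI in 17.0%. The differences between the groups of windows were not tested. A match is a description of the letters and says nothing of binding.

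Genes open in both populations differed in rank along the same lines. Of the 11977 promoters open in all 6 libraries, the percentile of all 3 gpSSPC libraries was above that of all 3 pSSPC libraries in 1396 (11.7%), and the reverse held in 1719 (14.4%). Of the 12 such chondrocyte genes, 6 ranked higher in gpSSPCs (among them Col11a1 at 93.9, 94.6 and 92.3 against 62.5, 50.1 and 62.3, and the matrilin Matn3 at 85.8, 85.4 and 84.8 against 45.1, 70.1 and 61.0) and 1 in pSSPCs. That gene was Sox9. Of the 16 periosteal genes, 9 ranked higher in pSSPCs and 1, the hedgehog effector Gli1, higher in gpSSPCs (45.4, 28.5 and 51.1 against 16.6, 12.9 and 0.6). Cd34, a surface marker of fibroblast progenitors, was at 57.6, 40.6 and 42.7 in gpSSPCs and 93.6, 96.6 and 91.6 in pSSPCs. Dcn and Prg4, which encode decorin and lubricin, had peaks in all 3 pSSPC libraries (Dcn 71.4, 73.1 and 74.2; Prg4 66.7, 72.4 and 66.4) and weak ones in 2 of 3 gpSSPC libraries (Dcn 25.4 and 16.0; Prg4 2.0 and 22.6). Prrx1, whose enhancer drives the Cre, was open in all 6 with overlapping percentiles (74.0, 51.3 and 56.6 against 63.5, 75.5 and 72.1). Of the 21 limb patterning genes, 14 were open in all 6 libraries and 1 of these ranked higher in each population, Hoxc9 in gpSSPCs and Shox2 in pSSPCs.

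Sox9 shows that a promoter and its surroundings can part. Its promoter peak stood at percentiles 60.4, 75.6 and 78.4 in gpSSPCs and at 91.3, 92.8 and 91.0 in pSSPCs, and its summit pileup, on the scale of log2 tags after quantile normalization, was 6.79, 6.97 and 6.83 in gpSSPCs and 6.91, 6.85 and 6.85 in pSSPCs. The height differed by -0.00 (SE 0.10; limma, adjusted p = 0.98), so that the difference in rank had no counterpart in height. Of the regions whose nearest protein-coding start site is that of Sox9, however, 32 were open in gpSSPCs only, 10 in pSSPCs only and 11 in all 6 libraries. No other gene had as many gpSSPC-only regions. The Sox9 start site lies in a wide gene desert, known to hold its distant enhancers, so that a large count of nearest regions is possible there.

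Counted by nearest gene, 53.5% of the regions open in 1 population only were gpSSPC regions (14519 against 12596). Near the 31 chondrocyte genes it was 82.6% (181 against 38), near the 28 periosteal fibroblast genes 17.1% (19 against 92) and near the 16 osteoblast genes 75.4% (43 against 14). Runx3 had 20 gpSSPC-only regions and no pSSPC-only region. Col2a1 and Acan had 9 and 8 against 0, Sox6 15 against 1 and Sox5 15 against 5. Among the chondrocyte genes, 3 had more pSSPC-only regions, namely Pthlh with 0 against 7, Trps1 with 5 against 6 and Epyc with 1 against 2. Pthlh encodes a hormone that delays the maturation of chondrocytes. On the other side, Col3a1 had 12 pSSPC-only regions against 0, Col14a1 10 against 0 and Osr1, a transcription factor of connective tissue, 8 against 1. Near Runx2 there were 13 gpSSPC-only and 6 pSSPC-only regions. The marrow stroma list divided, with Cxcl12 at 3 against 11, Kitl at 0 against 10 and Foxc1 at 11 against 0 (gpSSPC-only against pSSPC-only). The promoter of Foxc1, a regulator of marrow niche cells, was open in all 6 and ranked the other way, at 80.0, 79.1 and 74.7 in gpSSPCs and 89.4, 89.3 and 89.4 in pSSPCs. The nearest gene need not be the one a region acts on.

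Over all genes, those with the most regions of 1 population were read off the counts after they were seen. After Sox9, Chst11 (20 gpSSPC-only against 0 pSSPC-only), which sulfates the chondroitin chains of cartilage proteoglycans, and Runx3 (20 against 0) led the growth plate side without a region on the other. Tns3 also had 20 gpSSPC-only regions, but 18 on the other side. For pSSPCs, Mpdz had 23 regions against 0 in gpSSPCs, Tgfbr2, the type II receptor for TGF-beta, 22 against 6 and the transcription factor Zeb2 22 against 6. They were followed by Gm12728 (21 against 4) and Pik3r1, a regulatory subunit of PI3 kinase (21 against 5).

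**Figure D4:**
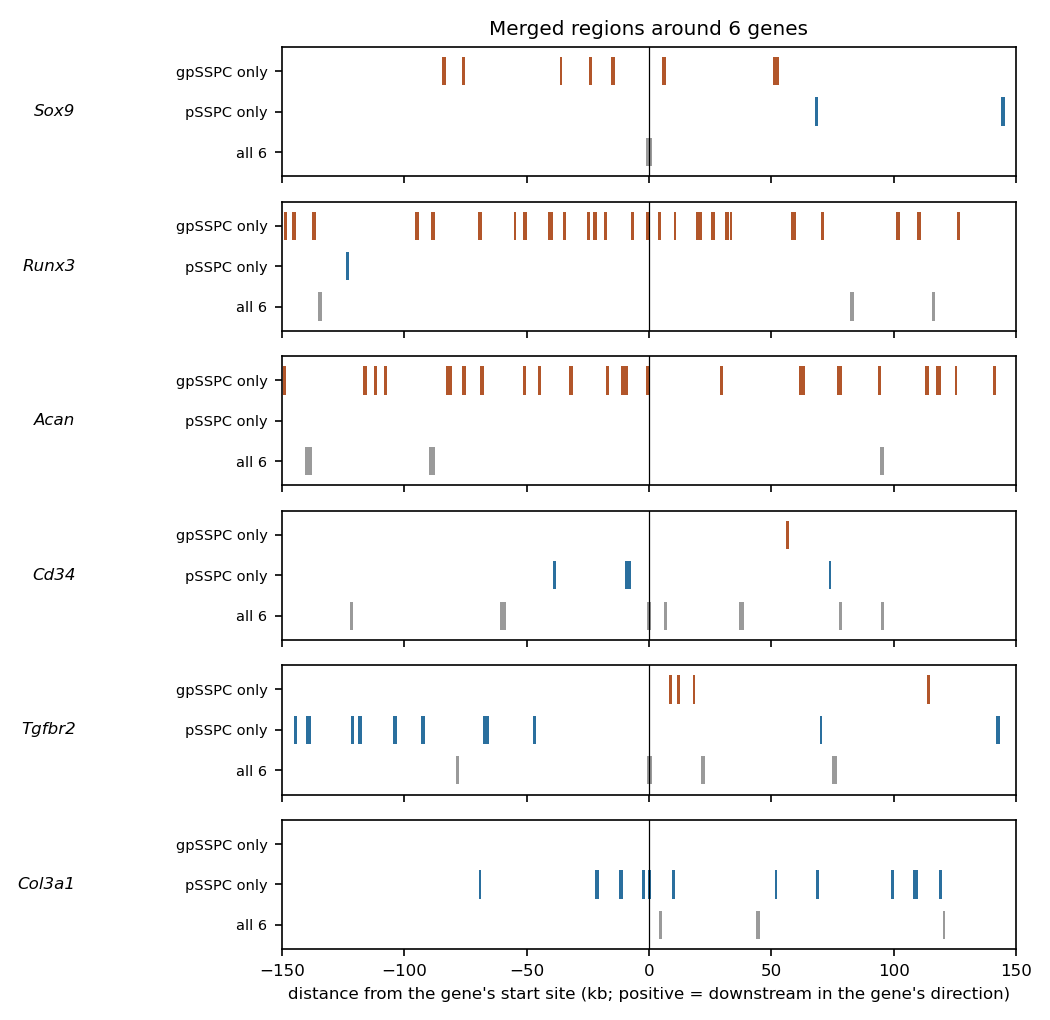
Merged regions within 150 kb of the start site of 6 genes (x axis, distance in kb, positive in the direction of transcription), drawn in rows by whether they were open in gpSSPCs only, pSSPCs only or all 6 control libraries, with regions of other patterns left out. Around Acan there are 21 gpSSPC-only and 0 pSSPC-only regions, around Runx3 26 and 1, and around Col3a1 0 and 11.

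The strongest regions of 1 population, taken by their median percentile, lay away from promoters. In gpSSPCs the first was an intergenic region at chr7:117842483-117843487, 272327 bp from the start site of Rps15a, at percentiles 99.2, 99.5 and 99.3. The next, chr1:75024376-75025457, lies in an intron of Nhej1, a gene whose introns are known to hold enhancers of its neighbour Ihh, the hedgehog ligand of the growth plate, and stood at 99.0, 99.4 and 99.2. Ihh's own promoter had a peak in 2 gpSSPC libraries, at percentiles 19.4 and 0.6, and in no pSSPC library. The others were near Gm12830 (median percentile 99.1), in an intron of Zpld1, 5633 bp from its start site (99.0), and 597638 bp from Mef2c (98.9), a transcription factor of chondrocyte maturation. In pSSPCs the first was chr9:105731797-105732754 in an intron of Col6a6, a chain of type VI collagen, at 98.4, 96.3 and 99.3. It was followed by intergenic regions nearest to Hsf2 (98.1), Intu (97.6), Agr3 (95.6) and Fgf10 (95.3), between 72288 and 586568 bp away. None of these 10 regions was at a promoter.

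Height was then compared in the 24925 regions open in all 6 libraries. Across these regions, log2 summit pileups had Pearson correlations of 0.897 to 0.942 between libraries of a population and of 0.581 to 0.655 between populations, and the first principal component, with 74.6% of the variance, separated the populations. These correlations are across regions of the same genome and libraries, and are given as a description. With limma on quantile-normalized values, 4441 regions (17.8%) were higher in gpSSPCs and 4415 (17.7%) in pSSPCs at an adjusted p under 0.05, of which 1591 and 1822 differed by at least 1 on the log2 scale. Quantile normalization sets the libraries to the same distribution and so allows no general shift. Scaled by the number of filtered tags instead, the median region had a difference of -0.25 on the log2 scale (gpSSPC minus pSSPC) and 1038 regions were higher in gpSSPCs against 2246 in pSSPCs, so that the balance of the directions rests on the scaling. Without gpSSPC replicate 3 the counts were 4321 and 4480.

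A larger share of intronic and intergenic regions than of promoter regions was called. Of the 11822 shared promoter regions, 11.7% were higher in gpSSPCs and 7.4% in pSSPCs, with a median absolute difference of 0.16 on the log2 scale. Of the 6278 intronic regions it was 26.0% and 26.2%, and of the 6350 intergenic regions 20.6% and 28.8%, with medians of 0.52 and 0.49. Of 68 shared regions nearest to chondrocyte genes, 29 were higher in gpSSPCs and 9 in pSSPCs (median difference 0.47, against 0.01 over all shared regions). Of 79 nearest to periosteal fibroblast genes, 8 were higher in gpSSPCs and 41 in pSSPCs (median -0.47). Osteoblast genes had 7 in each direction among 25, and limb patterning genes 3 and 12 among 38.

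At promoters, Nt5e had summit pileups of 176, 167 and 174 tags in gpSSPCs and 51, 41 and 80 in pSSPCs, a difference of 1.39 on the normalized log2 scale (SE 0.12; limma, adjusted p = 1.5e-08). Col11a1 differed by 1.99 (SE 0.18; adjusted p = 1.6e-08), Matn3 by 1.58 (SE 0.20; adjusted p = 1.4e-06) and Sox5 by 1.37 (SE 0.24; adjusted p = 7.7e-05) towards gpSSPCs. In the other direction, Cd34 had pileups of 40, 29 and 38 tags in gpSSPCs and 103, 90 and 149 in pSSPCs, a difference of -2.04 (SE 0.18; adjusted p = 1.3e-08). Twist2, a repressor of osteoblast maturation, differed by -1.73 (SE 0.22; adjusted p = 1.7e-06) and Col1a1 by -1.0 (SE 0.18; adjusted p = 8e-05). For Zmpste24 the difference was 0.38 (SE 0.27; adjusted p = 0.3), for Runx2 0.26 (SE 0.23; adjusted p = 0.43) and for Sox6 -0.08 (SE 0.17; adjusted p = 0.78), none of which passed the test. Of these genes, Nt5e, Zmpste24 and Runx2 were to be given whatever their values, and the others were picked from the lists after their values were seen.

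**Figure D5:**
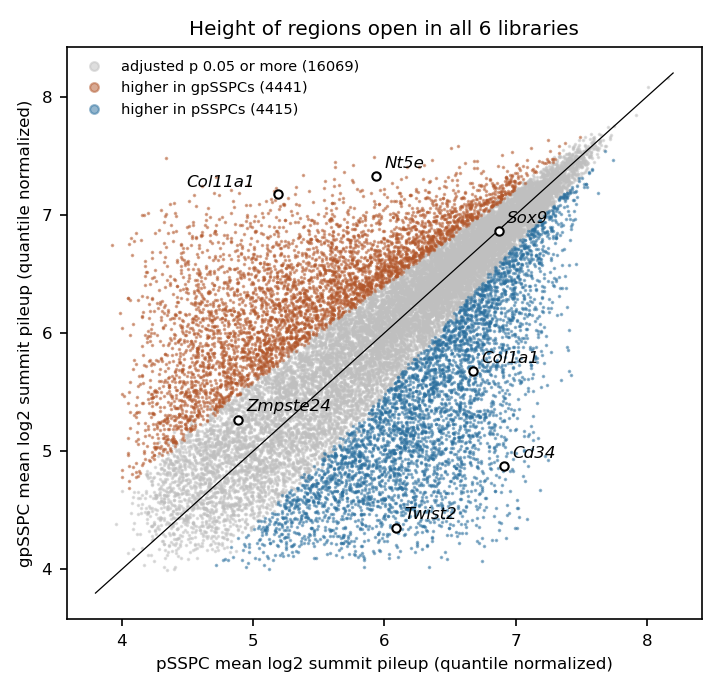
Mean log2 summit pileup after quantile normalization in 3 pSSPC libraries (x axis) and 3 gpSSPC libraries (y axis) for the 24925 regions open in all 6, 1 point per region, coloured by the limma test at an adjusted p of 0.05. Of the promoters ringed in black, Nt5e and Col11a1 lie above the line of equal height, Cd34, Twist2 and Col1a1 below it, and Sox9 on it.

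The largest differences in height were again away from promoters. Of the 8 largest towards gpSSPCs, the first was chr5:124046771-124047694, between genes and 14940 bp from the start site of Vps37b, with pileups of 198, 187 and 189 tags in gpSSPCs and 16, 11 and 23 in pSSPCs. It differed by 3.14 on the log2 scale (SE 0.18; limma, adjusted p = 2.8e-10) and moved from percentiles 98.5 to 100 in gpSSPCs to 16.3 to 28.2 in pSSPCs. The other 7, nearest to Ssr3, Tjap1, Shroom3, Mreg, Iffo2, Azin1 and Cemip2, differed by 2.73 to 2.85. With fold enrichment in place of pileup, the 8 differences were smaller, at 0.43 to 1.76, and those near Mreg (0.43, adjusted p = 0.051, limma) and Iffo2 (0.56, adjusted p = 0.084) did not pass the test. Of the 8 largest towards pSSPCs, the first was chr2:118039172-118040163, 72226 bp from the start site of Thbs1, a matrix glycoprotein that activates TGF-beta. Its pileups were 21, 19 and 26 tags in gpSSPCs and 95, 73 and 136 in pSSPCs, a difference of -2.67 (SE 0.21; adjusted p = 5.2e-09). Those nearest to Fut10, Numbl, Tshz2, Spata18, Dut and Pcdh7 differed by -2.66 to -2.57. Zdhhc1 was the only one of the 16 at a promoter, 191 bp from the start site, with 24, 24 and 30 tags in gpSSPCs and 112, 80 and 177 in pSSPCs (-2.65, SE 0.20; adjusted p = 4.5e-09). With fold enrichment the 8 differences lay between -0.96 and 0.00, and those near Numbl (-0.36, adjusted p = 0.14, limma), Pcdh7 (-0.35, adjusted p = 0.14) and Dut (0.00, adjusted p = 0.99) did not pass the test.

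RNA-seq libraries of the same control populations, 1000 sorted cells each, gave a second readout. Total counts were 2366909, 3196895 and 5035209 in gpSSPCs and 1333260, 3040833 and 4970995 in pSSPCs. In genes with 20 to 99 counts in a pair, the spread between replicates 2 and 3 was that of counting error (mean chi-square per gene of 0.88 in gpSSPCs and 1.02 in pSSPCs, compared with 13.00 to 17.17 for pairs that include replicate 1). The mean was 1.59 and 1.91 when genes of higher count were included. Their sum was therefore taken as a single sample, which leaves 2 samples against 2. The labels list them as separate replicates, however, and they may be separate samples. With edgeR's quasi-likelihood test, 0 of 12151 genes passed in either direction (0% and 0%, lowest adjusted p = 0.83). By the same test 247 and 383 had an unadjusted p under 0.05 (higher in gpSSPCs and in pSSPCs), and DESeq2 called 32 and 85. The number of calls rests on how the replicates are treated. It was 141 and 106 with each library as a sample, and 157 and 231 with a block on the replicate number. With 1 of the 4 samples left out, edgeR called 1 to 25 and 0 to 335, the most without the summed pSSPC replicates 2 and 3. Levels are therefore given per library, in CPM. Hemoglobin RNA followed the replicate, with Hbb-bs at 4.22, 2542 and 2655 CPM in gpSSPCs and 2.25, 733 and 685 in pSSPCs, although Ter119+ cells were gated out, and its part in the differences was not tested.

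Of the 26 list genes with a promoter open in 1 population only, 20 had CPM values higher in every library of that population, 5 had overlapping values and 1, Cspg4, had the opposite order. The CPM of all 3 gpSSPC libraries was above that of all 3 pSSPC libraries in 1754 of the 12151 genes tested (14.4%), and the reverse held in 1603 (13.2%). Of the 29 chondrocyte genes tested, 25 were higher in all 3 gpSSPC libraries and none in all 3 pSSPC libraries. Of 27 periosteal fibroblast genes tested, 17 were higher in all 3 pSSPC libraries and 1, Gli1, in all 3 gpSSPC libraries, and of 15 osteoblast genes 11 were higher in gpSSPCs. Acan had 2944, 4982 and 3927 CPM in gpSSPCs and 452, 445 and 391 in pSSPCs. Runx3 had 197, 114 and 105 against 28.5, 18.7 and 20.7. Matrix gene and regulator were thus higher in every gpSSPC library. Clec3b had 87.9, 68.2 and 62.6 against 295, 230 and 235, and Mfap5 304, 439 and 396 against 1091, 1874 and 1894. Sox9 RNA was higher in gpSSPCs, at 1722, 1039 and 1003 CPM against 631, 301 and 280, the order of its distal regions and not of its promoter's rank. Foxc1, whose promoter also ranked higher in pSSPCs, had 103, 123 and 113 CPM in gpSSPCs and 29.3, 83.9 and 91.9 in pSSPCs, again the opposite order. Col1a1 and Prg4, ranked higher in pSSPCs at the promoter, had overlapping RNA levels, Col1a1 with 6865, 4470 and 4040 CPM in gpSSPCs against 5076, 1851 and 1750, and Prg4 with 1211, 16892 and 18827 against 2082, 8906 and 8967. Prrx1 and Runx2, with overlapping promoter percentiles, had RNA levels that did not overlap. Prrx1 had 44.8, 104 and 90.6 CPM in gpSSPCs against 558, 333 and 357 in pSSPCs, and Runx2 111, 65.7 and 69.1 against 26.3, 24 and 20.1. Zmpste24 overlapped in RNA as at its promoter (4.65, 15 and 15.9 CPM against 0.75, 16.8 and 16.9). Cspg4 went against its promoter in the cut lists, with 128, 233 and 241 CPM in gpSSPCs and 78.8, 79.3 and 85.3 in pSSPCs. Its promoter had no peak in the cut gpSSPC lists, but 1 gpSSPC library had a peak there in the full lists and all 3 had one within 2500 bp.

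Across genes, promoters open in gpSSPCs only belonged to genes with a median log2 ratio of RNA (gpSSPC over pSSPC) of 1.78 in the 133 of 388 that had enough counts to be tested, and promoters open in pSSPCs only to genes with a median of -1.68 in 91 of 235. For the 9978 tested genes with promoters open in all 6 libraries the median was -0.00. Of the 133 genes, 80 (60.2%) were higher in all 3 gpSSPC libraries and 1, Lag3, in all 3 pSSPC libraries. Of the 91 genes, 34 (37.4%) were higher in all 3 pSSPC libraries and 5 in all 3 gpSSPC libraries, namely Bgn, Cspg4, Mthfs, Omd and Slc7a7. Bgn and Omd encode small proteoglycans of bone and cartilage matrix, with Bgn at 1425, 1414 and 1394 CPM in gpSSPCs and 842, 1100 and 1107 in pSSPCs. The tested genes are those with RNA in at least 1 population and do not stand for all 388 and 235. Of the 7146 genes with no promoter peak in any cut list, 327 had enough counts to be tested. Col2a1, which had no promoter peak in the cut pSSPC lists and 1 in 2 of 3 full pSSPC lists, had 4076, 2386 and 2045 CPM in pSSPCs against 24970, 15388 and 15146 in gpSSPCs.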

How the data were processed

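The authors trimmed adapters, aligned ATAC-seq reads to mm10 with Bowtie2, dropped mitochondrial reads and duplicates (Sambamba) and ran MACS2 2.2.7.1 on every library by itself, without a control, with tags shifted by -100 bp and extended to 200 bp, at a q-value cutoff of 0.05. The deposited pileup signal counts tags at the summit and is not scaled for depth; with at most 1 tag kept per position it saturates, which flattens differences between high peaks of deep libraries. Peak significance (−log10 of the q-value) and fold enrichment (the ratio of the pileup to local background) were likewise deposited per library. The RNA-seq counts were deposited as raw counts per gene, which the authors made with STAR and HTSeq after collapsing molecular identifiers.

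Lists were cut to 59183 peaks by −log10 q-value and merged by 1 bp overlap. Start sites came from GENCODE M21 (GRCm38), and places from the summit of a region's best ranked peak. Percentages over libraries were compared by exact permutation tests (scipy 1.17.1), heights by limma 3.58.1 (trend, Benjamini-Hochberg) in R 4.3.3, and RNA by edgeR 4.0.16 (TMM, filterByExpr), with DESeq2 1.42.0 as an alternative; bedtools 2.31.1 gave overlaps. Of 53801 gene identifiers, 53620 matched a symbol. Both fits were checked on simulated data. For RNA the simulated spread between samples was a fixed setting and was not taken from these libraries. That check therefore does not show how many real differences the RNA fit can find here. Regions open in 1 population only were not tested. Named were list genes open in 3 of 3 against 0 of 3 libraries and 11 fixed genes, the 8 shared regions with the largest difference in each direction, and the 5 highest ranked regions of each population; other names were chosen after their values were seen. The members and lists were chosen with earlier results of these data known. Motifs at summits were not searched, since no genome sequence was used here.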

Additional observations from a re-analysis of the deposited data

How the results depend on the processing

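The share of promoter peaks (gpSSPC minus pSSPC, -0.105 percentage points) had no stable sign: it was 0.0862 with promoters of 2500 bp and -0.498 to 0.222 when 1 library was left out. The difference in distal peaks turned from -1.23 to 2.196 percentage points with the full lists, and that in median width from 89.7 to -30.3 bp. The width difference was 46.2 bp without pSSPC replicate 2 and 144.7 bp without pSSPC replicate 3. With 50% of both peaks required, median overlaps were 76.3% within and 45.9% between populations. Regions open in 1 population only numbered 24255 for gpSSPCs with the full lists, and 7333 for gpSSPCs and 6710 for pSSPCs with the best 30000 peaks. Periosteal promoters open in pSSPCs only fell from 6 to 3 within 2500 bp and to 1 with the full lists, and all such promoters from 235 to 96. Shared regions higher in gpSSPCs and pSSPCs numbered 1038 and 2246 with pileups scaled by filtered tags and 2375 and 2226 by fold enrichment. Of 175 values of the 16 named shared regions under alternatives, 170 kept direction and threshold, 4 kept the direction only and 1 (near Dut, 0.00 by fold enrichment) lost it. The causes were not tested.

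Replicate numbers did not pair the ATAC-seq libraries (correlations of deviations 0.176, 0.077 and -0.009), and the block on the replicate number gave 4598 and 4581 called shared regions. RNA calls, 0 and 0 for higher in gpSSPCs and in pSSPCs, were 32 and 85 with DESeq2, 18 and 43 without the filter, 141 and 106 with each library as a sample, 157 and 231 with the replicate block (correlation of deviations 0.569 over 2 pairs), and, with 1 sample left out, 1 and 0 (without gpSSPC replicate 1), 3 and 6 (without the summed gpSSPC replicates 2 and 3), 15 and 38 (without pSSPC replicate 1) and 25 and 335 (without the summed pSSPC replicates 2 and 3). These last fits assume that the lone sample of a population varies like the other. Shares in CKO libraries (alternatives chosen after seeing the data) differed by 67.2 to 84.6 and -88.6 to -79.2 percentage points. Peak lists limit what an absent peak means: a weak peak can be missed at lower depth, and pSSPC replicates 1 and 2 had the fewest tags.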

Other observations

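Markers of marrow stroma divided between the populations. Of 11 marrow stroma promoters, 7 were open in all 6 libraries. Il7, a lymphoid growth factor, ranked higher in gpSSPCs, at percentiles 98.4, 97.3 and 94.9 against 77.7, 78.0 and 76.2. Kitl, which encodes stem cell factor, ranked higher in pSSPCs, at 46.4, 49.8 and 48.3 in gpSSPCs against 75.1, 74.3 and 71.5, as did Foxc1 and the adipogenic factor Pparg (44.1, 31.5 and 6.3 against 53.5, 65.4 and 44.7). Cxcl12 was at 69.0, 81.7 and 73.1 in gpSSPCs and 77.1, 81.5 and 76.5 in pSSPCs, and the groups overlapped. Scx, the transcription factor of tendon progenitors, ranked higher in gpSSPCs (69.1, 67.1 and 77.1 against 36.3, 27.0 and 25.9), Mkx overlapped (41.3, 62.1 and 71.0 against 54.7, 47.7 and 39.1), and the late tendon gene Tnmd had no promoter peak in any library. The promoter of Klf1, an erythroid factor, had a peak in all 6 libraries. RNA levels did not always follow these ranks. Il7 RNA overlapped, at 3.38, 4.69 and 5.96 CPM in gpSSPCs against 17.3, 4.6 and 5.63 in pSSPCs. Scx RNA overlapped as well (16.9, 3.44 and 4.96 CPM against 12.8, 11.8 and 14.1), as did that of Pparg. Kitl RNA was higher in every pSSPC library (21.5, 23.8 and 20.5 CPM in gpSSPCs against 46.5, 64.8 and 55.7).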
